A study of Rattus norvegicus with 4 samples.

Results

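Aminoacyl-tRNA synthetases attach each amino acid to the tRNA that carries it to the ribosome. Their genes were described in RNA-seq data of ventricular cardiomyocytes isolated from wild-type Wistar rats at postnatal day 1, according to the age label. The members were every listed gene whose symbol is 1 amino acid letter followed by "ars", with or without a trailing 1 or 2, together with Eprs, Farsa and Farsb. This rule found 38 entries with 37 symbols among 15731 listed genes, because Ears2 stands under 2 Ensembl identifiers (ENSRNOG00000018925 and ENSRNOG00000025353). Of the 38 entries, 20 encode cytosolic enzymes and 18, with a trailing 2 in the symbol, encode mitochondrial ones.

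The study compared 3 microRNA mimics, of human miR-25-3p, miR-93-5p and miR-106b-5p, with a control mimic, cel-miR-67, a nematode microRNA. Mimics were transfected at 25 nM with a lipid reagent, and total RNA was collected 72 h later. Each of the 4 conditions was 1 library from cultures that carried no genetic change, so no replicate exists, no statistical test could be made, and intervals below cover counting error only. All comparisons with the control share its single library, so that whatever was particular to that culture enters each of them. In bulk RNA, fewer cells of a type and less RNA per cell cannot be told apart.

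Each amino acid has a synthetase in the cytosol, and mitochondria use a mostly separate, nuclear-encoded set for the proteins made from mitochondrial DNA. Several cytosolic synthetases are held together in the multisynthetase complex by scaffold proteins. Many cytosolic synthetase genes are known targets of ATF4, the transcription factor that is induced when amino acids run short and that binds the C/EBP-ATF response element (CARE). Mutations in mitochondrial synthetase genes, including those for alanine, are known to cause cardiomyopathy.

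The sequences of the microRNAs show which mimics share a seed, the stretch from base 2 to base 8 that pairs with target mRNAs. The rat counterparts are given from RefSeq (build GRCr8), with the seed in capitals, and lie on the minus strand at chr12:22157103-22157123 for miR-106b, chr12:22156894-22156916 for miR-93 and chr12:22156652-22156673 for miR-25.
rno-miR-106b-5p: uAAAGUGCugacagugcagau
rno-miR-93-5p: cAAAGUGCuguucgugcagguag
rno-miR-25-3p: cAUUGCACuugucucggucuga
miR-106b and miR-93 have the same seed, AAAGUGC, whereas that of miR-25 is AUUGCAC.

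Promoters of synthetase genes were searched for the CARE core, through which ATF4 is known to act on genes of this family. RefSeq promoter windows, 250 bases before to 50 bases after a transcript start, were found for 33 of the 37 symbols, by their current symbols where these had changed (Aars is now Aars1; for Aars, Mars and Hars2 the start lies inside the outermost gene boundary), and none was found for the cytosolic genes Dars, Gars and Rars. The CARE core TGATGNAA, sought on both strands, was present in 7 of 17 cytosolic promoters (41.2%), those of Aars, Cars, Iars, Mars, Nars, Tars and Yars. It was present in 0 of 16 mitochondrial genes with a window and in 3.98% of all 33469 promoter windows. Members were counted by gene, Mars2 with its 3 windows as 1, whereas all promoters were counted by window. A window without it says only that these letters are not there. The Aars window is printed whole because Aars differed most, with its matches in capitals, on the plus strand of chr19:55908232-55908531.
Aars: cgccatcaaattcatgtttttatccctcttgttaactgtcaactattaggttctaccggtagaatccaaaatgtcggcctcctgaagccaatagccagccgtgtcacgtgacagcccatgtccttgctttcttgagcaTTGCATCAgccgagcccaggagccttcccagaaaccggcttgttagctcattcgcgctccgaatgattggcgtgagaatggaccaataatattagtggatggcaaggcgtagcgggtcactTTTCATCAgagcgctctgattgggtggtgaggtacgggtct
Both matches in Aars read on the strand opposite to the gene; the first began 112 bases before the start site. Stretches of 60 bases around the match are shown for 5 other genes, to compare its position, from the minus strand of chr7:65023737-65023796 for Mars, the plus strand of chr5:146820153-146820212 for Yars, and the minus strand of chr2:62114796-62114855 for Tars, chr1:208225320-208225379 for Cars and chr17:15193643-15193702 for Iars.
Mars: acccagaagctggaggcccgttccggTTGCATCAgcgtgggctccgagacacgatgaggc
Yars: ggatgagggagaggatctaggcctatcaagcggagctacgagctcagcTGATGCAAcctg
Tars: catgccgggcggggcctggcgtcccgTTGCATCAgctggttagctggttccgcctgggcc
Cars: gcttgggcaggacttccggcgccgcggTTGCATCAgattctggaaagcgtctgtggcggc
Iars: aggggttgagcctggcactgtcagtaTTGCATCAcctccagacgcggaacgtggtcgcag
The same 8 bases, TTGCATCA, occurred in Mars, Tars, Cars and Iars and at the first site of Aars, and Yars held their reverse complement. In Mars, Tars and Iars the match began 17, 27 and 24 bases before the start site, and in Cars and Yars it lay within the first 50 transcribed bases. The E-box CACGTG was present in 5 of 17 cytosolic promoters (29.4%), those of Aars, Farsb, Iars, Tars and Vars, in 1 of 16 mitochondrial genes (6.25%) and in 6.42% of all promoter windows.

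The 4 libraries held 15175185 to 18797234 reads on listed genes, and every member had at least 60 reads in each. Synthetase genes took 0.402% of these reads in the control, 0.423% and 0.446% in the miR-106b and miR-93 libraries, and 0.355%, the lowest share, after miR-25. Values are RPKM, read numbers divided by the length of a gene's exons and by the size of the library, and a gene was counted as higher or lower when its RPKM exceeded 1 in both libraries and its fold change exceeded 1.3 (0.38 on the log2 scale). All 38 entries passed the RPKM limit in every comparison. Summed over the cytosolic members, RPKM was 785 in the control, 775 and 771 in the miR-106b and miR-93 libraries and 623 with miR-25. The mitochondrial sums were 103, 102, 108 and 94.1 in the same order, so that both sets had their lowest RPKM sum with miR-25. As a share of reads on listed genes the mitochondrial set was not lowest with miR-25. It held 7126 of 16460108 such reads with miR-25 and 6445 of 15175185 in the control. Read shares and RPKM use different totals. Reads on listed genes were 66.9% of the library size behind RPKM in the control. In the miR-106b, miR-93 and miR-25 libraries they were 63.2%, 60.5% and 60.4%.

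No cytosolic synthetase gene passed 1.3-fold against the control, in either direction, with miR-106b or miR-93. With miR-25, 7 of the 20 were lower and 1 was higher. Over both compartments miR-25 gave 12 lower and 3 higher of 38 entries, or 31.6% and 7.89%, beside 22.6% lower and 19.3% higher among the 11198 genes tested. miR-93 gave 0 lower and 3 higher, beside 15.6% and 15.1% of 11280 genes, and miR-106b gave 0 lower and 1 higher, beside 12.7% and 11.9% of 11296 genes. For all 19 of these differences the 95% counting interval of the log2 fold change left out 0. The plot of fold changes by mimic shows the members side by side.

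**Figure D1:**
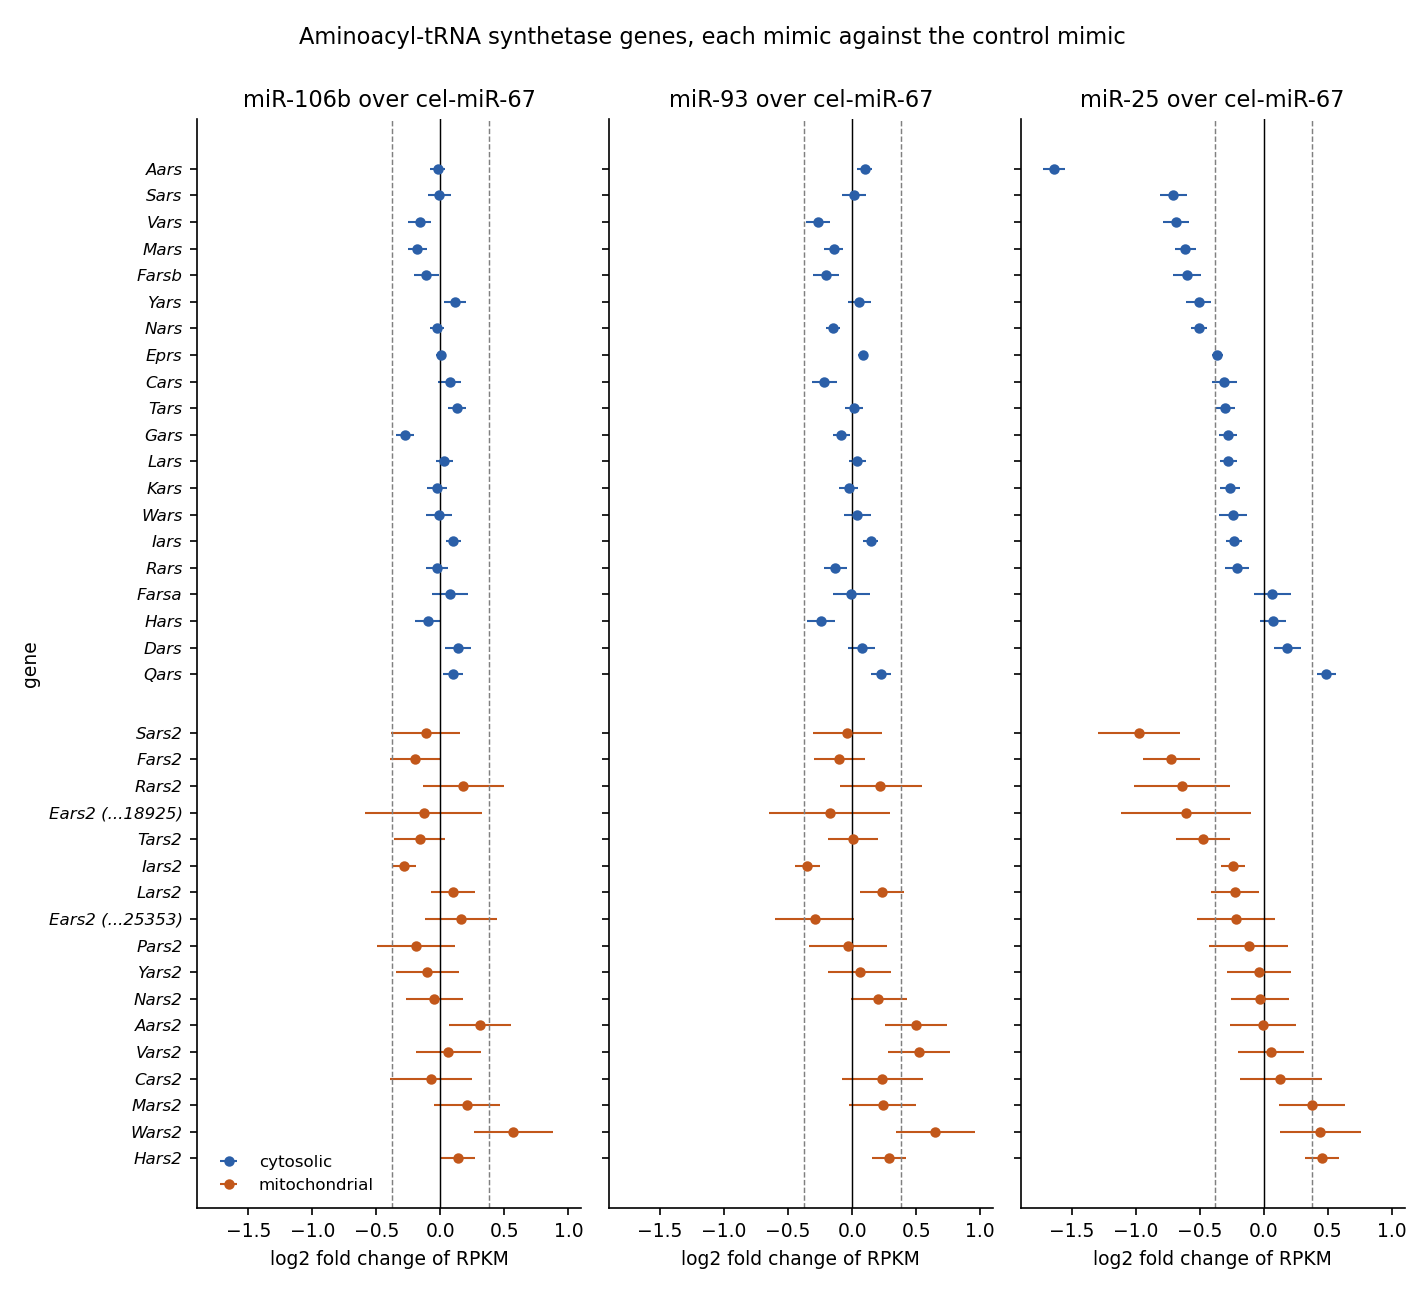
Log2 fold change of RPKM (horizontal axis) of 37 of the 38 synthetase entries (vertical axis) over cel-miR-67, with 1 panel and 1 library for each mimic; blue points are cytosolic and orange points mitochondrial, bars are 95% counting intervals and dashed lines mark 1.3-fold. Cytosolic genes stay within the dashed lines with miR-106b and miR-93, and 7 of 20 pass the lower line with miR-25, Aars farthest at -1.64.

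Aars (ENSRNOG00000018404), alanyl-tRNA synthetase, differed most. It measured 43.2 RPKM in the control, 42.5 and 46.2 after miR-106b and miR-93, but 13.9 after miR-25. The miR-25 library alone was low, 3.11-fold below the control (log2 -1.64, 95% counting interval -1.72 to -1.55), whereas the log2 fold changes with miR-106b and miR-93 were -0.02 and 0.10. Aars rested on 1559 to 5226 reads per library.

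Sars, seryl-tRNA synthetase, which also charges the tRNA used for selenocysteine, stood at 58.5 RPKM in the control, 58.2 for miR-106b, 59.0 for miR-93 and 35.9 for miR-25. Its log2 fold change with miR-25 was -0.71 (interval -0.81 to -0.60), and again the other 3 libraries lay together. Vars, valyl-tRNA synthetase, read 16.7 RPKM in the control, 14.95 and 13.9 in the miR-106b and miR-93 libraries and 10.4 with miR-25, for which the log2 fold change was -0.68 (interval -0.79 to -0.58). Farsb encodes the beta subunit of the cytosolic phenylalanyl-tRNA synthetase. It had 30.7 RPKM in the control, 28.5 for miR-106b, 26.7 for miR-93 and 20.2 for miR-25, a log2 fold change of -0.60 (interval -0.71 to -0.49) for the last. Its partner Farsa, the alpha subunit of the same enzyme, did not follow: RPKM was 17.5 in the control and 18.3 with miR-25, a log2 fold change of 0.06 (interval -0.08 to 0.21).

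Nars, asparaginyl-tRNA synthetase, had the highest control level of the whole family, 80.8 RPKM, against 79.3 and 72.9 in the miR-106b and miR-93 libraries and 56.9 with miR-25. The last value gave a log2 fold change of -0.51 (interval -0.57 to -0.45). Yars, tyrosyl-tRNA synthetase, measured 33.9 RPKM in the control, 36.6 for miR-106b, 35.2 for miR-93 and 23.8 for miR-25, a log2 fold change of -0.51 (interval -0.61 to -0.41). In both genes the miR-25 library was the lowest of the 4. Wars, tryptophanyl-tRNA synthetase, was the lowest cytosolic member in the control at 13.7 RPKM, with 11.6 RPKM after miR-25 and 13.7 and 14.1 after the other mimics, none of them past 1.3-fold.

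Among the 8 synthetases of the multisynthetase complex, 1 was lower and 1 higher with miR-25, or 12.5% in each direction. All genes tested gave 22.6% lower and 19.3% higher, and 8 genes are too few to tell these shares apart. Mars, methionyl-tRNA synthetase, which charges the initiator tRNA, had 43.2 RPKM in the control, 38.1 and 39.1 in the miR-106b and miR-93 libraries and 28.2 with miR-25, a log2 fold change of -0.62 (interval -0.70 to -0.53). Qars, glutaminyl-tRNA synthetase, went the other way and was the only cytosolic member past 1.3-fold upward: 38.3 RPKM in the control, 40.9 for miR-106b, 44.7 for miR-93 and 53.7 for miR-25, giving a log2 fold change of 0.49 (interval 0.42 to 0.56) for miR-25. The other 6 complex members, Eprs, Iars, Lars, Kars, Rars and Dars, ranged from -0.36 for Eprs, the fused glutamyl- and prolyl-tRNA synthetase, to 0.18 for Dars. Their median with Mars and Qars included was -0.25, beside -0.41 for the 12 cytosolic synthetases outside the complex, of which 6 were lower and 0 higher with miR-25. These medians compare with -0.01 over all genes tested with miR-25.

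**Figure D2:**
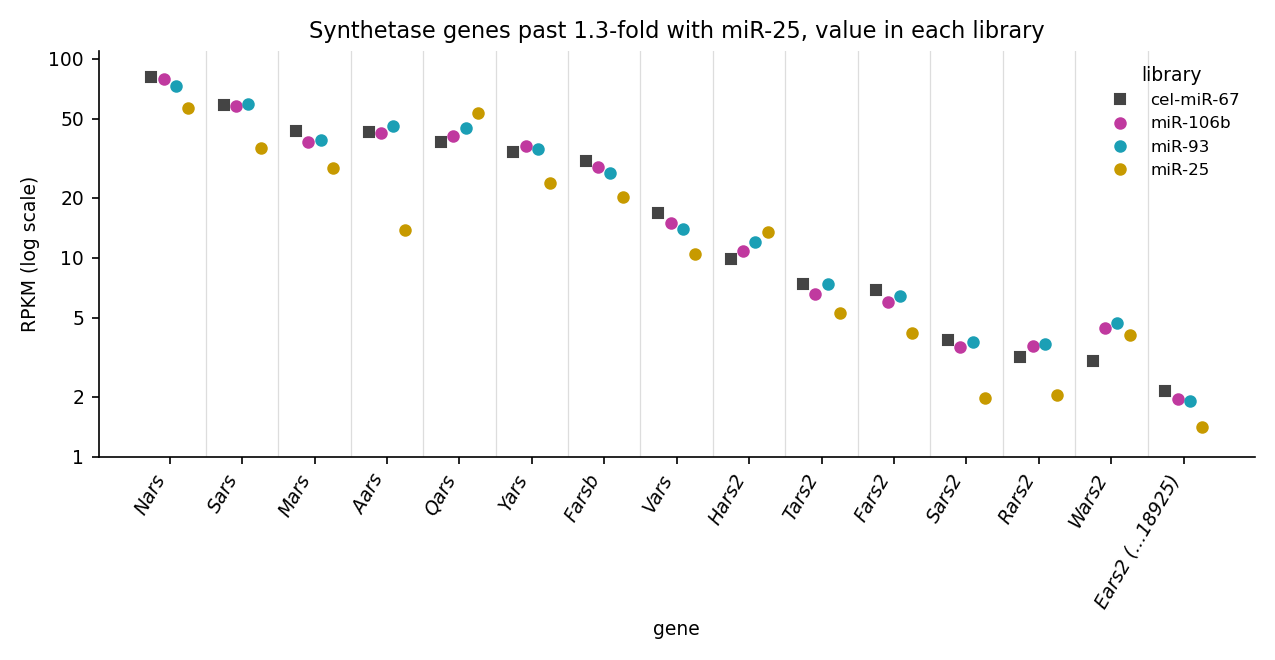
RPKM on a log axis of the 15 synthetase entries past 1.3-fold with miR-25, in each of the 4 libraries, ordered by the control level; squares are the control mimic and circles the 3 microRNA mimics, 1 library each, with no error bars. The miR-25 point lies below the other 3 for 12 entries, and above them for Qars and Hars2.

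Outside the 8 genes past the limit, the remaining 12 cytosolic members had log2 fold changes from -0.36 (Eprs) to 0.18 (Dars) with miR-25. Across the 20 cytosolic genes the miR-25 library was the lowest of the 4 in 16 and the highest in 3, and the other 3 libraries lay within 1.3-fold of each other for 20 of 20. The cytosolic median log2 fold change was -0.29 for miR-25, -0.01 for miR-106b and 0.00 for miR-93. Gars and Kars, whose products serve both cytosol and mitochondria, had -0.28 and -0.27 with miR-25. The enzymes fall into 2 unrelated structural classes. Of the 9 cytosolic class I genes 3 were lower and 1 higher with miR-25 (median -0.28). Of the 10 class II genes 4 were lower and 0 higher (median -0.29). All genes tested with miR-25 gave 22.6% lower and 19.3% higher. Eprs was counted in neither class, as it holds 1 enzyme of each.

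Markers of cell types also moved with miR-25, and their part in the synthetase differences was not tested. Cardiomyocyte markers were present in all libraries. Their summed RPKM was 5961 to 6402 in the control, miR-106b and miR-93 libraries and 3937 with miR-25. With miR-25, 8 of 9 were lower and 1 was higher, beside 22.6% and 19.3% of all genes tested. Tnni3, cardiac troponin I, stood at 351 RPKM in the control and 15.9 after miR-25 (log2 -4.47). With miR-106b and miR-93 it was higher than the control (log2 0.63 and 0.49). The other lower cardiomyocyte markers ran from -1.29 (Ryr2) to -0.42 (Pln) with miR-25. Fibroblast markers summed to 637 to 821 RPKM in the other 3 libraries and 317 with miR-25, with 7 of 8 lower and 1 higher. They were also lower in 5 of 8 with miR-106b and 4 of 8 with miR-93, beside 12.7% and 15.6% of all genes tested. Smooth muscle markers were higher in 4 of 4, summing to 2051 RPKM with miR-25 and 583 to 745 in the others. Endothelial and macrophage markers summed to 4.01 to 4.97 and 10.7 to 15.2 RPKM, with 5 of 6 and 6 of 6 names found and none at 0. These sums hide single genes that moved with miR-25. Of 2 endothelial markers tested 1 was higher and 1 lower, and of 3 macrophage markers tested 0 were higher and 1 lower.

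Cytosolic genes with the CARE core in the promoter had a miR-25 median of -0.51 on the log2 scale, over 7 genes from -1.64 to -0.24, of which 4 were lower. The 10 cytosolic genes whose window had no match had a median of -0.27, from -0.71 to 0.49, with 3 lower and 1 higher. Among all genes tested with miR-25, 22.6% were lower and 19.3% higher. With miR-106b the medians were 0.07 and -0.01, and with miR-93 they were 0.02 and 0.00. The ranges of the 2 groups overlapped with each mimic. For the 5 genes with an E-box the miR-25 median was -0.60, beside -0.29 for the 12 without, and 3 of these 5 also held the CARE core.

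Mitochondrial synthetase genes were expressed at lower levels and moved in both directions. Control RPKM ranged from 2.13 for Vars2 to 22.9 for Iars2, isoleucyl-tRNA synthetase 2, against 13.7 to 80.8 for the cytosolic set. Iars2 stood at 18.8 and 18.0 in the miR-106b and miR-93 libraries and 19.4 with miR-25, below the control with each mimic but within 1.3-fold. The median log2 fold change over the 18 entries was 0.01 for miR-106b, 0.21 for miR-93 and -0.17 for miR-25. The mitochondrial median thus lay above 0 with miR-93 and below it with miR-25. At an RPKM limit of 2 the miR-25 median was -0.08. That limit left out Sars2 and Ears2 (ENSRNOG00000018925), both of them lower, whose RPKM fell below 2 with miR-25. Among these 18 the miR-25 library was the lowest of the 4 in 8 and the highest in 2, and the other 3 libraries lay within 1.3-fold of each other in 14. Numbers of reads were smaller here, and intervals wider.

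Of the 18 mitochondrial entries, 5 were lower with miR-25 (27.8%) and 2 higher (11.1%), the share of lower entries being near the 22.6% of all genes tested, so the values that follow describe single genes. Sars2, the mitochondrial seryl-tRNA synthetase, was 3.88 RPKM in the control, 3.58 and 3.77 in the miR-106b and miR-93 libraries and 1.97 with miR-25, a log2 fold change of -0.97 (interval -1.30 to -0.65). Both seryl-tRNA synthetases were thus lowest with miR-25. Fars2, the single-chain mitochondrial phenylalanyl enzyme, had 6.90 RPKM in the control, 6.01 for miR-106b, 6.44 for miR-93 and 4.19 for miR-25 (log2 -0.72, interval -0.94 to -0.50). Rars2, for arginine, read 3.17 RPKM in the control, 3.58 and 3.69 in the miR-106b and miR-93 libraries and 2.04 with miR-25 (log2 -0.64, interval -1.01 to -0.27). Tars2, for threonine, showed 7.36 RPKM in the control, 6.58 for miR-106b, 7.40 for miR-93 and 5.30 for miR-25 (log2 -0.47, interval -0.69 to -0.26). For each of these 4 genes the miR-25 library was below the other 3.

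Ears2 charges mitochondrial tRNA with glutamate, and reads of the gene may be divided between its 2 entries. ENSRNOG00000018925 had 2.14 RPKM in the control, 1.95 and 1.89 in the miR-106b and miR-93 libraries and 1.41 with miR-25, giving a log2 fold change of -0.61 for miR-25 and the widest interval of the family for that mimic (-1.12 to -0.10). ENSRNOG00000025353 had 4.05, 4.53, 3.30 and 3.48 RPKM in the same order and a log2 fold change of -0.22 (interval -0.52 to 0.09). The second entry was therefore not past the limit, and its lowest library was miR-93.

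Wars2, mitochondrial tryptophanyl-tRNA synthetase, was the only member past 1.3-fold with all 3 mimics. RPKM was 3.01 in the control, 4.45 for miR-106b, 4.72 for miR-93 and 4.08 for miR-25. The log2 fold changes were 0.56 (interval 0.26 to 0.88), 0.65 (0.34 to 0.96) and 0.44 (0.12 to 0.76), all measured against the same control value, which was the lowest of the 4. Wars, its cytosolic counterpart, had -0.01, 0.04 and -0.24.

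Hars2, histidyl-tRNA synthetase 2, was 9.85 RPKM in the control, 10.8 and 12.02 in the miR-106b and miR-93 libraries and 13.5 with miR-25 (log2 0.45 for miR-25, interval 0.32 to 0.58), with miR-25 the highest. Hars and Hars2 lie head to head, with start sites 144 bases apart and promoter windows that share 243 of 300 bases (GRCr8), yet Hars, at 0.07 with miR-25 and -0.24 with miR-93 on the log2 scale, was within 1.3-fold. Aars2 and Vars2 were past the limit with miR-93 alone. Aars2, the mitochondrial alanyl enzyme, read 2.64 RPKM in the control, 3.26 for miR-106b, 3.72 for miR-93 and 2.62 for miR-25 (log2 0.50 for miR-93, interval 0.26 to 0.74). Vars2, its counterpart for valine, had 2.13, 2.22, 3.05 and 2.21 RPKM in the same order (log2 0.52 for miR-93, interval 0.28 to 0.76). In both, the control and miR-25 values were nearly the same. Of the 9 mitochondrial entries past the limit with no mimic, Mars2 had the highest log2 fold change with miR-25, 0.37, just inside the limit.

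Within the 16 pairs of genes for the same amino acid, the cytosolic gene had the higher RPKM in all 16 pairs in each library. Fars2 was paired with both Farsa and Farsb. The median ratio was 5.76 in the control, 6.04 and 4.77 in the miR-106b and miR-93 libraries and 5.03 with miR-25. Aars over Aars2 and Nars over Nars2 were the widest pairs in the control, both at 16.4. Aars over Aars2 was 13.0 for miR-106b, 12.4 for miR-93 and 5.28 for miR-25, where Aars was low and Aars2 was at its control level. Sars over Sars2 went from 15.1 in the control to 18.2 with miR-25, both genes being lower and Sars2 by more. Rars over Rars2 was 12.5 in the control and 16.9 with miR-25. Iars over Iars2 was the narrowest pair in every library, 1.23 in the control and 1.23 with miR-25. The ratio was below its control value in 8, 12 and 9 pairs for the mimics miR-106b, miR-93 and miR-25.

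**Figure D3:**
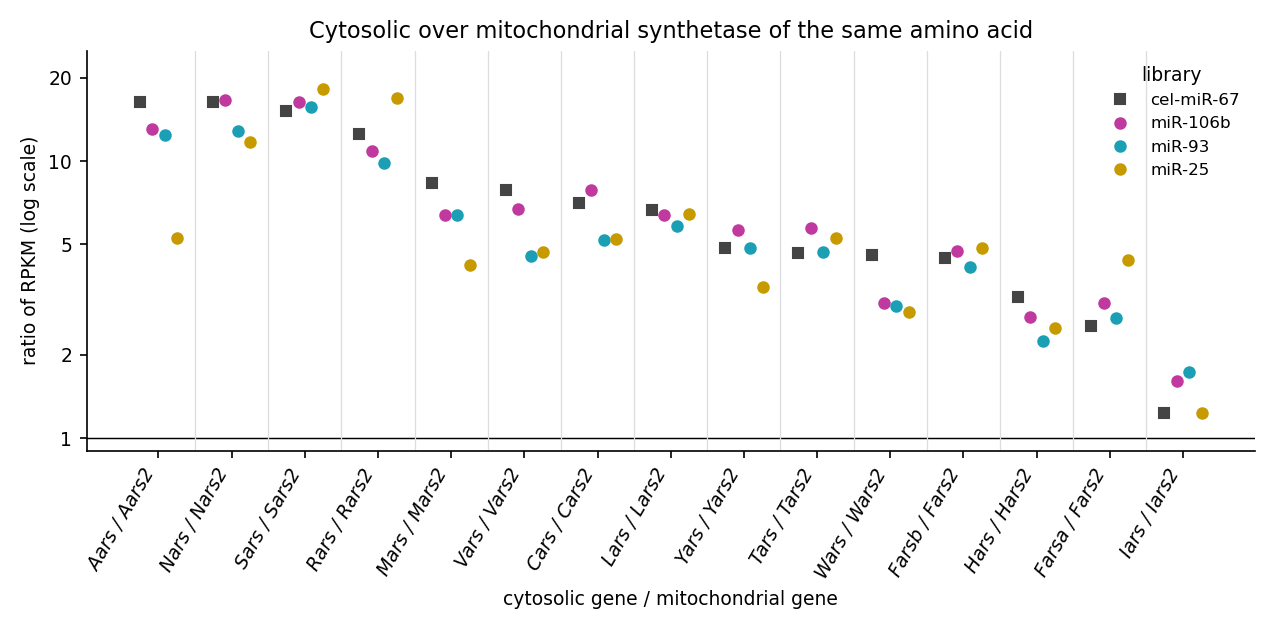
Ratio of RPKM of the cytosolic to the mitochondrial synthetase gene of the same amino acid (log axis) for 15 of the 16 pairs in each of the 4 libraries, ordered by the control ratio; Fars2 is paired with both Farsa and Farsb, and there are no error bars. All ratios shown lie above 1, and Aars over Aars2 falls from 16.4 in the control to 5.28 with miR-25.

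Ratios between mimics do not use the control library. miR-25 against miR-106b gave 15 lower and 1 higher (Qars, log2 0.39) of 38 entries, beside 23% lower and 22.1% higher of 11183 genes tested. Against miR-93, miR-25 gave 17 lower and 0 higher, beside 23% and 22.1% of 11198 genes. The counting interval left out 0 for 14 of these 15 and 16 of these 17 lower entries. Aars was again the farthest, with a log2 fold change of -1.62 against miR-106b and -1.74 against miR-93. Of the 17 entries lower than with miR-93, 8 were cytosolic and 9 mitochondrial. miR-93 against miR-106b gave 1 higher, Vars2 (log2 0.46), and 1 lower, Ears2 under ENSRNOG00000025353 (log2 -0.45), beside 7.3% and 8.21% of 11391 genes. The 2 mimics that share a seed thus differed past 1.3-fold in 2 of 38 entries, and the interval left out 0 in both.

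The scaffold of the multisynthetase complex consists of Aimp1, Aimp2 and Eef1e1. None was past 1.3-fold with miR-25 or miR-93. Aimp2 was lower with miR-106b, at 11.4 RPKM against 15.04 in the control, with 12.8 for miR-93 and 12.7 for miR-25. With these 3 scaffold genes, 14 partners of charging were found, including enzymes that correct mischarged tRNA and the glutamyl-tRNA amidotransferase by which mitochondria make glutaminyl-tRNA. Of the 14, 2 were higher and 3 lower with miR-25, 4 higher and 1 lower with miR-93, and 0 higher and 3 lower with miR-106b. The miR-25 shares, 14.3% higher and 21.4% lower, were close to the 19.3% and 22.6% of all genes tested. With miR-93 the shares were 28.6% higher and 7.14% lower, beside 15.1% and 15.6% of all genes. With miR-106b 21.4% were lower, beside 12.7% of all genes.

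Aarsd1, which removes amino acids wrongly attached to alanine tRNA, was 8.37 RPKM in the control, 10.4 and 8.89 in the miR-106b and miR-93 libraries and 4.37 with miR-25, a log2 fold change of -0.94 for the last. It was lowest in the same library as Aars. Dtd2, which removes D-amino acids from tRNA, read 1.86, 2.40, 2.47 and 2.98 RPKM in that order, and was highest with miR-25 (log2 0.68). Tarsl2, a second cytosolic threonyl-tRNA synthetase that the symbol rule leaves out, was 6.44 RPKM in the control, 4.01 for miR-106b, 4.27 for miR-93 and 9.44 for miR-25. The mimics with the shared seed had it below the control (log2 -0.68 and -0.59) and miR-25 above (log2 0.55), whereas Tars had 0.13, 0.02 and -0.30. Sepsecs, of selenocysteine synthesis, was lower with miR-106b alone (log2 -0.64). Of the amidotransferase subunits, Gatb was higher with miR-93 (log2 0.49). Qrsl1 and Gatc were chosen after their values were seen: Qrsl1 was also higher with miR-93 (log2 0.48) and lower with miR-25 (log2 -0.42), and Gatc was lower with miR-25 (log2 -0.44).

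Elongation factors, which bring the charged tRNA to the ribosome and move it along, gave 5 lower of 10 for miR-25, 3 for miR-93 and 1 for miR-106b, and 0 higher for any mimic, beside 22.6%, 15.6% and 12.7% lower among all genes tested. The higher shares of all genes tested were 19.3%, 15.1% and 11.9% in the same order. Gfm1, mitochondrial elongation factor G1, was 48.1 RPKM in the control, 40.2 and 40.8 in the miR-106b and miR-93 libraries and 21.5 with miR-25 (log2 -1.16). Tufm, the mitochondrial factor that delivers charged tRNA, was 58.9, 58.2, 50.3 and 39.8 RPKM in the same order (log2 -0.57 with miR-25). Both mitochondrial genes had their lowest value with miR-25. Eef1d, of the cytosolic nucleotide exchange complex, had log2 fold changes of -0.65 with miR-25 and -0.47 with miR-93, and Eef1a2, the muscle form of elongation factor 1A, had -0.77 for miR-93 and smaller differences of -0.48 after miR-25 and -0.41 after miR-106b. Ribosomal protein genes of the cytosol, some of them near-identical copies between which reads cannot be divided, had 47 lower and 2 higher of 84 with miR-25 (median log2 -0.43), and those of the mitochondrion 33 lower and 4 higher of 74 (median -0.26). The 2 ribosomal sets thus had 56.0% and 44.6% lower and 2.38% and 5.41% higher with miR-25, beside 22.6% lower and 19.3% higher of all genes tested. The cytosolic and mitochondrial ribosomal medians were 0.19 and 0.06 for miR-106b, and -0.20 and 0.06 for miR-93. The cytosolic ribosomal medians thus had opposite signs for the mimics with the shared seed, while the cytosolic synthetase medians were within 0.01 of 0 with both.

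Genes of ATF4 and of the response to amino acid shortage were lower with miR-25 in 20 of 29 tested entries (Nupr1 counts 2 times, under 2 identifiers) and higher in 1, and their median was -0.53 on the log2 scale; the lower share was 69.0%, beside 22.6% of all genes tested. With miR-106b 1 was lower and 2 were higher (median 0.07), beside 12.7% lower and 11.9% higher of all genes tested. For miR-93 5 were lower and 6 higher (median 0.21). These 17.2% and 20.7% compare with 15.6% and 15.1% of all genes tested. The list was drawn up with earlier results of these data known and was given no test. Cth, cystathionine gamma-lyase of cysteine synthesis, was 4.16 RPKM in the control, 4.68 for miR-106b, 5.48 for miR-93 and 1.17 for miR-25 (log2 -1.83). Stc2, the secreted glycoprotein stanniocalcin 2, was 3.99, 3.52, 5.27 and 1.11 RPKM in the same order (log2 -1.85). In both, miR-25 was the lowest of the 4 libraries and miR-93 the highest.

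Vldlr, a lipoprotein receptor, was below the control with every mimic, at 51.3 RPKM in the control, 16.4 and 13.3 in the miR-106b and miR-93 libraries and 22.5 with miR-25. Atf3 and Ppp1r15a, both of the stress response, were lowest with miR-93, at 1.67 and 6.95 RPKM against 5.11 and 15.02 in the control. Phgdh, Psat1 and Psph, the 3 enzymes of serine synthesis, had log2 fold changes of -0.96, -0.66 and -0.54 with miR-25, beside -0.71 for Sars and -0.97 for Sars2. Asns, asparagine synthetase, had -0.12 beside -0.51 for Nars. Atf4 itself was 170 RPKM in the control, 170 for miR-106b, 162 for miR-93 and 137 for miR-25 (log2 -0.32), within 1.3-fold. These last 5 genes were chosen after their values were seen.

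**Figure D4:**
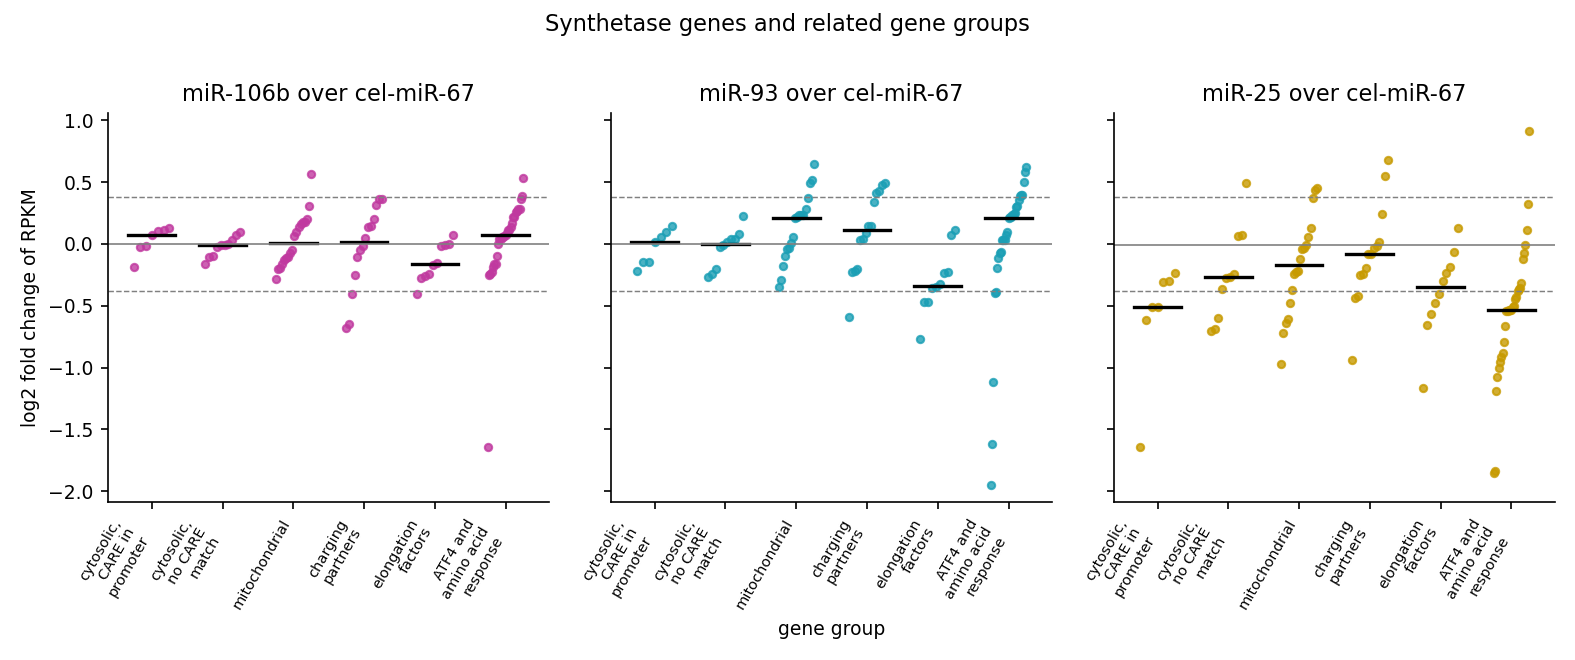
Log2 fold change of RPKM (vertical axis) with each mimic over cel-miR-67 for 6 gene groups: cytosolic synthetases with (7) or without (10) the response element CARE in the promoter window, mitochondrial synthetases (18), charging partners (14), elongation factors (10) and the ATF4 list (29); points are genes, black bars group medians, the grey line the median of all genes and dashed lines 1.3-fold. With miR-25 the 6 medians, in the order listed, are -0.51, -0.27, -0.17, -0.08, -0.35 and -0.53. The CARE group and the ATF4 list both have 0.07 with miR-106b. With miR-93 the medians differ, 0.21 for the ATF4 list and 0.02 for the CARE group. A part of ATF4 in the synthetase differences was not tested.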

How the data were processed

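RNA of 4 cultures was sequenced, 1 library per mimic, with groups taken from the sample labels. The authors trimmed reads with Cutadapt, aligned them with STAR 2.7 to Rnor_6.0 and deposited RPKM values made with edgeR; the counting program and use of strand are not given in the sources used here. The treatment label gives 25 nM of mimic, the extraction label 25 mM. For the age of the rats the treatment label gives an earlier day than the age label, which was used. From the deposited RPKM, whole reads were recovered for 15731 of 15731 genes from the step that 1 read is worth (tested on simulated data); reads of 654 genes, 2 of them members, were multiplied by a whole factor common to all libraries, and too large a factor would make intervals too narrow. Fold changes were ratios of RPKM with no pseudocount, with exact Clopper-Pearson 95% intervals of the reads, which cover counting error only. Limits of 1.3-fold and RPKM above 1 follow the study's results text; its methods state an RPKM limit of 2, tried as an alternative. Libraries held 15175185 to 18797234 reads on listed genes.

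The members, lists and named genes were chosen with earlier results of these data known. Values in every library are given for members past 1.3-fold whose interval leaves out 0, for the highest and lowest member of each compartment in the control and for both genes of a pair past the limit with all mimics; of other lists at most the 5 largest are named, exceptions being marked. An item that enters the totals is not reported here or drawn. No column of sample values was left unused. Analyses used Python 3.11.15, pandas 2.3.3 and scipy 1.17.1.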

Additional observations from a re-analysis of the deposited data

How the results depend on the processing

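Alternatives were an RPKM limit of 2 or none, a pseudocount of 1 or 0.1, centring on the median gene, a fold limit of 1.5 and, for the 2 compartments, a mean in place of the median and Gars and Kars left out. Scaling to reads on listed genes, 66.9% of the library size in the control and 60.4% with miR-25, was not tried. It would raise every ratio of miR-25 to the control. Lower calls near the limit, such as Nars, Yars and Tars2, could then be lost, and Mars2 could pass upward. The mitochondrial median with miR-25 would move toward 0. The fold changes of single members stayed within their counting error under the 2 alternatives tried for them, a pseudocount of 1 and centring. The centres of both compartments moved by less than the typical counting error of a single member. That yardstick is not the error of a centre, so it cannot show that the centres were stable. With miR-25 the mean was -0.35 for the cytosolic and -0.18 for the mitochondrial set. The medians ranged from -0.31 to -0.28 and from -0.17 to -0.08. The last value, at an RPKM limit of 2, left out Sars2 and Ears2 (ENSRNOG00000018925), which were below that limit with miR-25. With a limit of 1.5-fold fewer genes pass by construction: 9 members were lower and 0 higher with miR-25, 1 higher with miR-93 and 0 with miR-106b, and miR-25 gave 5 lower and 0 higher against miR-106b and 6 lower against miR-93. At the same limit the charging partners gave 0 higher with miR-93 and 1 higher and 1 lower with miR-25; elongation factors 2 lower with miR-25, 1 with miR-93 and 0 with miR-106b; and the ATF4 list 0 higher with miR-106b, 1 higher and 3 lower with miR-93, and 10 lower with miR-25. A pseudocount of 1, which shrinks low values, left 1 member, 2 partners and 3 ATF4 list genes higher with miR-93 and 1 ATF4 list gene higher with miR-106b, as did a pseudocount of 0.1 for the last. With an RPKM limit of 2, 1 partner was higher with miR-25 and 1 ATF4 list gene with miR-106b, and with none 2 ATF4 list genes were higher with miR-25. The alternatives for comparisons between mimics and for the gene lists were chosen after seeing the data. No paired analysis was possible because each mimic has 1 library, which also means that nothing here measures the spread between cultures.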
